A study of Mus musculus with 10 samples.

Results

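The genes described here encode the proteins of the cytosolic ribosome, and the measurement is the presence of a binding site of the transcription factor RBPJ near the start of each gene. Members were chosen by symbol alone (Rpl or Rps followed by a number, with an optional letter a, l or x, and Rplp0, Rplp1 and Rplp2) among the protein-coding genes of chromosomes 1 to 19 in GENCODE release M21. This gave 75 of 20807 genes, 46 of the large subunit and 29 of the small subunit, and the other 20732 genes served as background. A gene was counted as having a peak when the centre of a peak lay in a window that reached 5 kb upstream and 1 kb downstream from its annotated 5′ end, which stands for the transcription start site (TSS).

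The study profiled mouse RD1 cells, labelled as brain pericytes (the mural cells that wrap capillaries), which were left untreated and kept in Pericyte Medium on dishes coated with collagen I. Chromatin immunoprecipitation followed by sequencing (ChIP-seq) was performed for RBPJ, H3K4me1, H3K4me3 and H3, beside input chromatin, with 2 replicates in each of the 5 groups. The files of the 2 RBPJ replicates were identical and held 1 list of 11094 peaks, given as positions without a score, so that they were counted as 1 sample and no spread between replicates can be given. Files of the remaining 8 samples were not used here, the depth is unknown, and no expression values were used here, so that the labelled cell type was not checked against its markers.

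Each ribosome joins a large subunit, which forms the peptide bonds, to a small subunit, which reads the mRNA. Ribosomal protein genes are transcribed at high levels in dividing cells, mostly from compact promoters without a TATA box, and their mRNAs begin with a cytosine and a run of pyrimidines (the TOP motif) through which translation is coupled to growth signals. RBPJ is the DNA-binding protein of the Notch pathway: it recognises the core sequence TGGGAA, holds target genes in check with corepressors, and activates them together with the intracellular domain of Notch.

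The promoters of 6 members are shown so that the position of the peak on the start of the gene, and the presence or absence of the TGGGAA core in it, can be read from the sequence. The centre lay within 500 bp of the start at 75.9% of the members with a peak and at 74.1% of such other genes, and the core was present at the centre of 10.7% and 15.9% of their peaks. Each sequence runs from 250 bp before to 50 bp after the annotated 5′ end, in the direction of transcription (GRCm38.p6). In the first 2, at chr11:97782388-97782687 (minus strand) and chr7:45128712-45129011 (minus strand), capitals mark TGGGAA or its reverse complement TTCCCA.
Rpl23: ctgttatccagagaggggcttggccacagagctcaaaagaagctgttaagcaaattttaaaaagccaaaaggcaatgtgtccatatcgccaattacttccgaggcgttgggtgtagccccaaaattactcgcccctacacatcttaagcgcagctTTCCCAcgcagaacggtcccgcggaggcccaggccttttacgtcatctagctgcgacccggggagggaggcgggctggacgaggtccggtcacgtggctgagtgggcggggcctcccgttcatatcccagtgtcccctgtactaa
Rpl13a: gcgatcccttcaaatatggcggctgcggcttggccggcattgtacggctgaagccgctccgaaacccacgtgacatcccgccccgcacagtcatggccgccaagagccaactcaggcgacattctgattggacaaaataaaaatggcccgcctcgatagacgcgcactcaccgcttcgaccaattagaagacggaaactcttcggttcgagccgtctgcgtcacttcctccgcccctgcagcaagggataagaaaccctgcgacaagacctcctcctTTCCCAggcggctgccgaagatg

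The promoters of the 4 members with the narrowest peaks over their own 5′ end lie at chr15:76903828-76904127 (plus strand), chr9:106429204-106429503 (plus strand), chr14:24486875-24487174 (plus strand) and chr17:33824513-33824812 (minus strand). Here capitals mark the bases inside the RBPJ peak. The peak of Rpl8 lies wholly in the printed sequence, while those of Rpl29, Rps24 and Rps28 run on past its end. For Rps24 the window holds the annotated 5′ end of the gene but no start of a coding transcript, the nearest of which lies 3556 bp downstream of that end.
Rpl8: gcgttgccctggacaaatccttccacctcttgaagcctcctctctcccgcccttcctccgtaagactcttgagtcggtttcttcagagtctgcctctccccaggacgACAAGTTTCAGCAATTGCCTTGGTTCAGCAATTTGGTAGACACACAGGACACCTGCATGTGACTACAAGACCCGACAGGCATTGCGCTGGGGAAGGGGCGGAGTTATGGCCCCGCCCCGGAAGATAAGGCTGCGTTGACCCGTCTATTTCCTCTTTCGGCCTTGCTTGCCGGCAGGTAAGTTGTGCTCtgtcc
Rpl29: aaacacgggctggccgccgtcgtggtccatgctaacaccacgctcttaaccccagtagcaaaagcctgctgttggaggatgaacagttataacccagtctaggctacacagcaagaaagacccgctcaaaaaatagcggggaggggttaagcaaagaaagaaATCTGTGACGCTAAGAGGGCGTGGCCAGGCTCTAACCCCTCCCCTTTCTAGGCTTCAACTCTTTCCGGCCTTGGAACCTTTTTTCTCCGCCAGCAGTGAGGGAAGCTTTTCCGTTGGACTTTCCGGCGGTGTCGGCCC
Rps24: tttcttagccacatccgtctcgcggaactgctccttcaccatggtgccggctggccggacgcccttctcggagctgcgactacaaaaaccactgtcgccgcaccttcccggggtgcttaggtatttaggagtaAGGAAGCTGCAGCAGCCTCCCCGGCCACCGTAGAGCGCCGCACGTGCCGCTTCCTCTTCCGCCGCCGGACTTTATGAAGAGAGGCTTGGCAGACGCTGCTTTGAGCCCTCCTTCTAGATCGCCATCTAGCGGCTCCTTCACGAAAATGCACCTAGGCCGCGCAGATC
Rps28: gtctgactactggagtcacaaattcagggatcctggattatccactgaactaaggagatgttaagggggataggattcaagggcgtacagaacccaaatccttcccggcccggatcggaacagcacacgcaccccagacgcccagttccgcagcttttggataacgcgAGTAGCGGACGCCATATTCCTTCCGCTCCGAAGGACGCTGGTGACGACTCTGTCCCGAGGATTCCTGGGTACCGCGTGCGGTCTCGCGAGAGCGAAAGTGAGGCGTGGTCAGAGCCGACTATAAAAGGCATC

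The copy of the core in Rpl23 began 95 bp upstream of the 5′ end and the copy in Rpl13a 27 bp downstream of it, and both lay inside a peak. The 4 narrow peaks of Rpl8, Rpl29, Rps24 and Rps28 held no copy of the core over their whole length.

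RBPJ peaks were found at 29 of the 75 ribosomal protein genes, which is 38.7% (95% exact Clopper-Pearson interval 27.6 to 50.6). Over all 20807 genes the share was 28.3%, and in the other 20732 genes it was likewise 28.3% (27.6 to 28.9). The lower bound of the members' interval lay within the interval of the other genes. These intervals cover counting error only, and neighbouring genes that share a peak are not independent. At 24 members (32.0%, 21.7 to 43.8) the annotated 5′ end itself lay inside a peak, against 24.5% of all genes.

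Most of these peaks were centred on the start of the gene. The 28 distinct nearest peaks of the 29 members had a median distance from centre to 5′ end of 208 bp over members (quartiles 73.0 and 425), and the centre was within 500 bp in 22 members (75.9%) and within 1 kb in 26 (89.7%). At the 5858 other genes with a peak, the median distance was 223 bp, with 74.1% within 500 bp and 91.8% within 1 kb. Distance from the start thus covered much the same range in both. The centre was upstream of the 5′ end in 16 members (55.2%) and in 42.8% of the other genes. At the 43 mitochondrial ribosomal protein genes with a peak it was upstream in 55.8%.

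**Figure D1:**
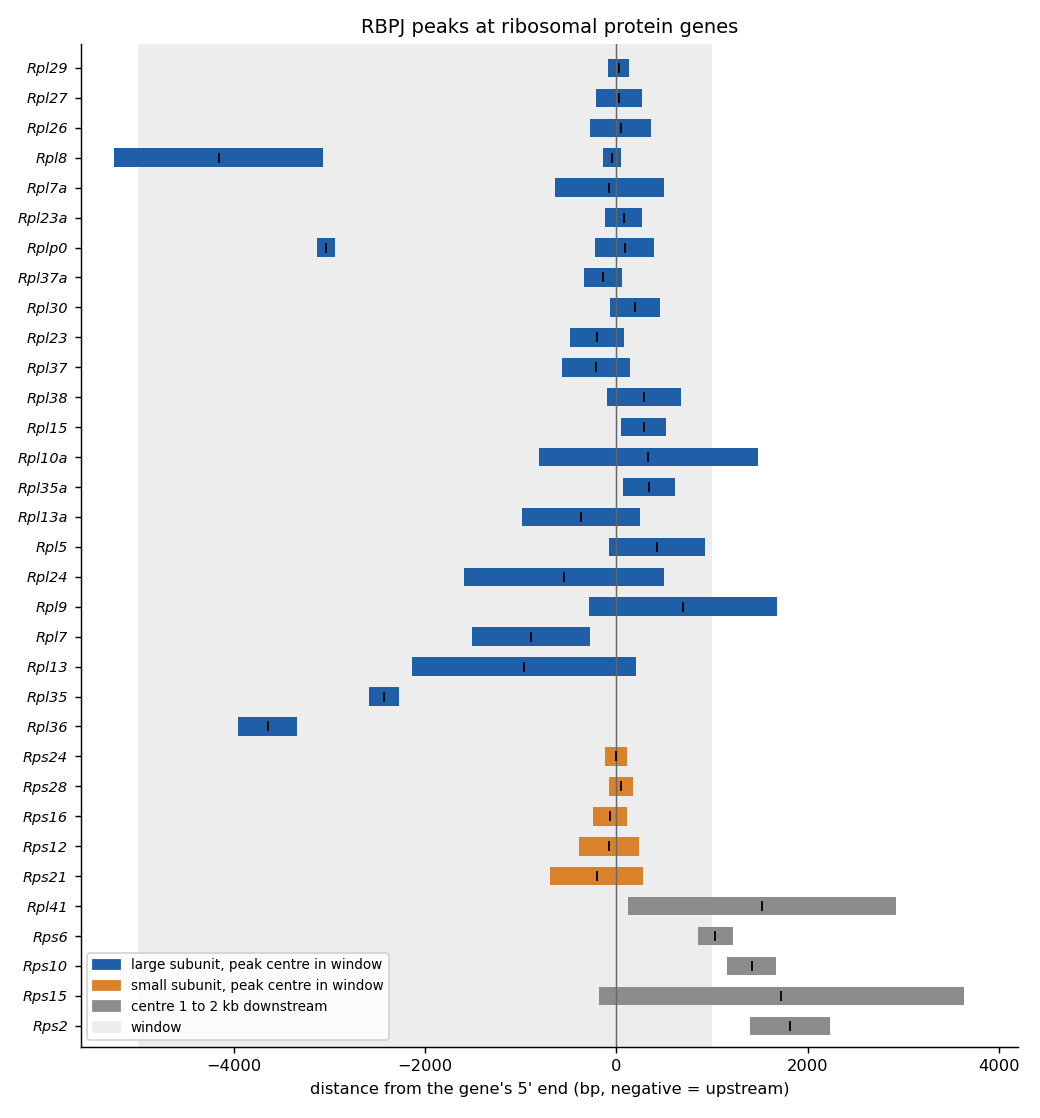
Position of each RBPJ peak (bar, with its centre as a tick) relative to the annotated 5′ end of 33 ribosomal protein genes, in bp along the direction of transcription. The 28 genes drawn with a peak centre in the grey window are in blue (large subunit) and orange (small subunit), and the 5 genes in grey have their nearest peak centre 1 to 2 kb downstream, just outside it. A peak in the window of several members is drawn at the closest one. The bars at Rpl35 and Rpl36 lie far upstream, and 22 nearest centres are within 500 bp of the start.

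Among the proteins of the large subunit, 23 of 46 genes had a peak (50.0%, 34.9 to 65.1). The closest were those at Rpl29, centred 23.5 bp downstream of the 5′ end with a width of 224 bp (chr9:106429366-106429589), and at Rpl27, centred 26 bp downstream with a width of 475 bp (chr11:101442087-101442561). At Rpl26, whose protein also binds the mRNA of p53, the peak was 647 bp wide and centred 44 bp downstream (chr11:68901304-68901950). At Rpl8, which encodes a protein close to the peptidyl transferase centre, a peak of 188 bp was centred 49.5 bp upstream (chr15:76903935-76904122). This was the narrowest of the members' nearest peaks, and it ended within the first transcribed bases shown above. At Rpl7a, a peak of 1137 bp was centred 73 bp upstream (chr2:26910123-26911259), in the short interval that separates the gene from its divergent neighbour Med22, a Mediator subunit whose 5′ end was 14 bp from the same centre.

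Among the nearest peaks of the members, the widest were also at large subunit genes. The peak at Rpl13 spanned 2340 bp, with its centre 962.5 bp upstream (chr8:123100218-123102557). The peak at Rpl10a spanned 2289 bp (333 bp downstream, chr17:28327660-28329948), the peak at Rpl24 2091 bp (551 bp upstream, chr16:55964679-55966769), and the peak at Rpl9 1959 bp (698 bp downstream, chr5:65389767-65391725). All 4 covered the 5′ end of the gene despite their distant centres. Next in width was the peak of 1234 bp at Rpl13a (371.5 bp upstream, chr7:45128516-45129749), whose protein is also known from a complex that silences translation of inflammatory mRNAs.

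The remaining large subunit genes with a peak near the start were Rpl23a (393 bp wide, 76 bp downstream, chr11:78183312-78183704), Rpl37a (141.5 bp upstream), Rpl30 (193.5 bp downstream), Rpl23 (201.5 bp upstream), Rpl37 (214 bp upstream), Rpl38 (287 bp downstream), Rpl35a (338 bp downstream) and Rpl5 (425 bp downstream). Their peaks were 393 to 1009 bp wide. Rpl23a sits at the exit of the nascent chain, Rpl5 carries the 5S rRNA into the ribosome, and mutations of human RPL5 and RPL35A cause Diamond-Blackfan anaemia, a failure of red cell production. The peak at Rpl15 (469 bp wide, 287 bp downstream, chr14:18270870-18271338) began after the 5′ end of the gene, and its centre was 32 bp from the 5′ end of the neighbouring gene Nkiras1 and 37 bp from the start of another coding transcript of Rpl15 itself.

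In 3 large subunit genes the peak in the window lay away from the start. The peak counted for Rpl7 (1232 bp, chr1:16104938-16106169) was centred 891.5 bp upstream and 220.5 bp from the 5′ end of Rdh10, a retinol dehydrogenase. The peak counted for Rpl36 (609 bp, chr17:56609465-56610073) was centred 3647 bp upstream and 2 bp from the 5′ end of 2410015M20Rik. The peak counted for Rpl35 was centred 2430 bp upstream, inside the gene Arpc5l. None of these 3 peaks reached the annotated 5′ end of the member.

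The stalk of the large subunit, which recruits translation factors, is built from Rplp0 and dimers of Rplp1 and Rplp2. Rplp0 had 2 peaks, one of 620 bp centred 88.5 bp downstream (chr5:115559246-115559865) and one of 185 bp centred 3037 bp upstream (chr5:115556338-115556522). Rplp1 and Rplp2 had none, with their nearest peaks 7.48 kb and 7.69 kb away. The only other member with more than 1 peak was Rpl8, whose upstream peak of 2182 bp (chr15:76898831-76901012) was centred 4156.5 bp from its start but 11.5 bp from that of Commd5.

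Among the proteins of the small subunit, 6 of 29 genes had a peak (20.7%, 7.99 to 39.7), a lower share than in the large subunit. The interval of the small subunit reached from below the background to 39.7%, and that of the large subunit began at 34.9%, so that the intervals overlapped. The peak centre closest to an annotated 5′ end was at Rps24, a gene mutated in Diamond-Blackfan anaemia in humans: 229 bp wide, it was centred 3 bp upstream of the 5′ end (chr14:24487008-24487236). The nearest start of a coding transcript of Rps24 was, however, 3559 bp downstream of this centre, and the divergent gene Polr3a begins next to it. Further peaks near the start were at Rps28 (258 bp wide, 46.5 bp downstream, chr17:33824387-33824644), Rps16 (359 bp, 67 bp upstream, chr7:28350406-28350764), Rps12 (78.5 bp upstream) and Rps21 (207.5 bp upstream).

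The count for the small subunit depended on where the gene was taken to start. Another 5 members (6.67%) had their nearest peak centre 1 to 2 kb downstream of the annotated 5′ end, just outside the window, against 344 other genes (1.66%), and 4 of the 5 encode small subunit proteins. They were Rps6 (1035.5 bp downstream, peak of 374 bp, chr4:86856190-86856563), Rps10 (1413 bp, peak of 521 bp, chr17:27634996-27635516), Rpl41 (1527 bp, peak of 2803 bp, chr10:128546377-128549179), Rps15 (1725.5 bp, peak of 3822 bp, chr10:80292268-80296089) and Rps2 (1813 bp, peak of 835 bp, chr17:24719512-24720346). For Rps10 and Rps2 the same peak was centred 12 bp and 134 bp from the start of another annotated coding transcript of the gene. At Rpl41 it was centred 4 bp from the 5′ end of Zc3h10. At Rps15 the broad peak covered the 5′ end although its centre did not fall in the window. Rps6 is the ribosomal substrate of the S6 kinases.

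With the window extended to 2 kb downstream, 34 members (45.3%) and 29.9% of the other genes had a peak, with 24 of 46 in the large subunit (52.2%) and 10 of 29 in the small subunit (34.5%). With any coding transcript start in place of the gene's 5′ end, the counts were 24 (52.2%) and 9 (31.0%). In these as in all other settings tried the share was higher in the large subunit. With the longer window or any coding start the distance between the subunits narrowed from 23 against 6 genes. With peaks of at least 500 bp alone the counts were 17 (37.0%) and 3 (10.3%).

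Chromosomes 4 and 7 carried few RBPJ peaks altogether, and chromosome 7 holds 14 of the 75 members, while chromosome 4 holds 5. On these chromosomes 163 of 3331 other genes had a peak (4.89%), while elsewhere 32.7% had one (32.0 to 33.4). Of the members, 19 (25.3%) lie on chromosomes 4 and 7, against 16.1% of the other genes, with 12 of 29 small subunit genes (41.4%) and 7 of 46 large subunit genes (15.2%). Of these 19 members, 3 had a peak (15.8%, 3.38 to 39.6), all on chromosome 7 and with Rpl13a and Rps16 among them. The cause of the low share on chromosomes 4 and 7 was not tested.

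Without chromosomes 4 and 7, 26 of 56 members had a peak (46.4%, 33.0 to 60.3), against 32.8% of all genes. The large subunit then had 22 of 39 (56.4%, 39.6 to 72.2) and the small subunit 4 of 17 (23.5%, 6.81 to 49.9), so that the share was lower in the small subunit outside these chromosomes. On chromosomes 4 and 7 it was 1 of 7 large subunit genes (14.3%) and 2 of 12 small subunit genes (16.7%). Had each member the share of the other genes on its own chromosome, 19.5 of the 75 would carry a peak, 13.6 in the large and 5.89 in the small subunit. The observed counts were 29, 23 and 6. Members with a peak were spread over 12 chromosomes. There were 5 of 7 on chromosome 11 (34.7% of the other genes there), 3 of 4 on chromosomes 2 (29.9%) and 15 (38.5%), and 3 of 7 on chromosome 17 (31.6%). Counts were lower on chromosomes 9 (1 of 6, 29.6% of the other genes), 10 (1 of 4, 33.4%) and 12 (0 of 3, 30.3%). On chromosomes 3 (31.4%) and 18 (31.7%) it was 0 of 2.

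**Figure D2:**
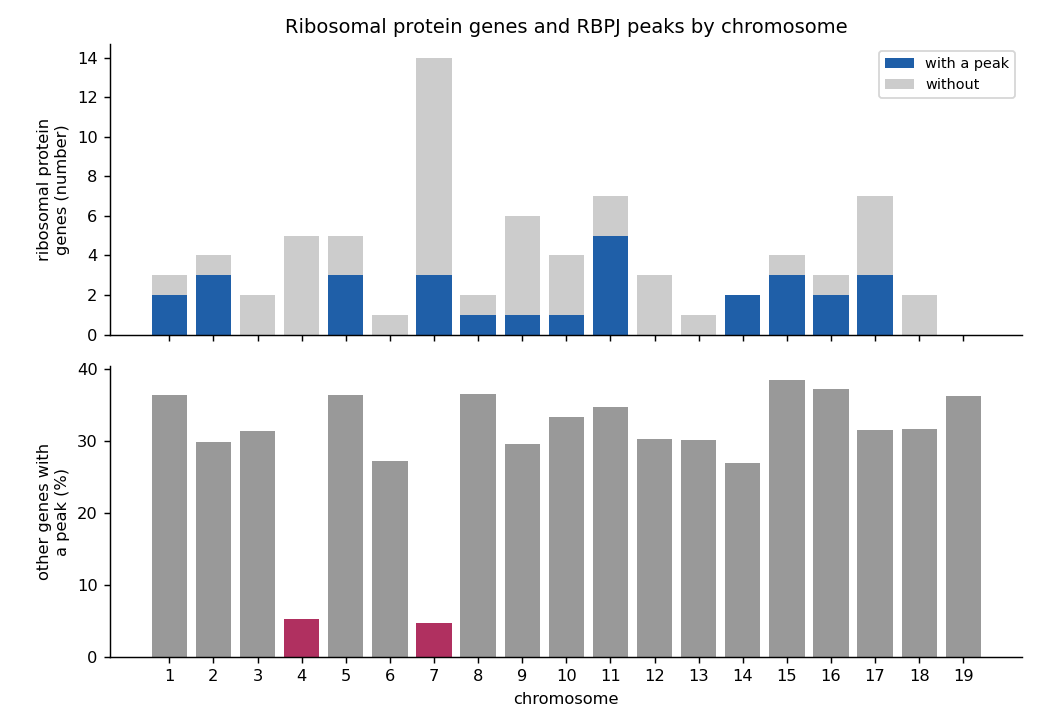
Upper panel, number of ribosomal protein genes on each of chromosomes 1 to 19, with a peak (blue) and without (grey). Lower panel, percentage of the other protein-coding genes with a peak on the same chromosomes, with chromosomes 4 (5.22%) and 7 (4.68%) in red. Chromosome 7 holds 14 members, more than any other chromosome, and 3 of them have a peak.

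The other 46 members had no peak in the window. Outside chromosomes 4 and 7 there were 30, 17 of the large and 13 of the small subunit, with the nearest peak centre at a median of 19.7 kb from the 5′ end. Beside Rps10, Rpl41, Rps15 and Rps2 described above, those within 10 kb were Rps18 (4.32 kb), Rpl32 (5.52 kb), Rpl4 (5.87 kb), Rplp1 (7.48 kb), Rpl3l (7.89 kb), Rpl3 (8.89 kb) and Rpl12 (9.91 kb). At Rpl3, which helps to shape the peptidyl transferase centre, another coding transcript started 429.5 bp from this peak, and at Rps14, 27.7 kb from its nearest peak, another coding transcript started 157.5 bp from that peak. Between 10 and 100 kb were, among others, Rps25 (10.1 kb), Rpl14 (11.2 kb), Rpl6 (13.2 kb), Rpl17 (20.6 kb), Rps27a (21.6 kb), Rps27l (26.9 kb), Rps27 (34.8 kb), Rps23 (35.5 kb), Rps26 (36.3 kb), Rpl19 (37.6 kb), Rpl21 (38.0 kb), Rpl34 (38.8 kb) and Rps29 (82.8 kb). The farthest were Rpl31 (111 kb), Rps7 (169 kb), Rpl39l (242 kb) and Rpl10l (1210 kb).

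On chromosomes 4 and 7, 16 members had no peak. Apart from Rps6 (1.04 kb) and Rplp2 (7.69 kb), the nearest peak was at least 35.5 kb away, and the median over all 16 was 167 kb. Among them were Rps3 (35.5 kb), Rpl18 (98.6 kb), Rpl28 (108 kb), Rps15a (136 kb), Rpl27a (153 kb), Rps20 (157 kb), Rpl11 (177 kb), Rps19 (284 kb), Rps9 (323 kb), Rpl22 (1700.3 kb) and Rps13 (1918 kb). Rpl11, the partner of Rpl5 in carrying the 5S rRNA, and Rps19, the gene most often mutated in Diamond-Blackfan anaemia, are both in this group.

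**Figure D3:**
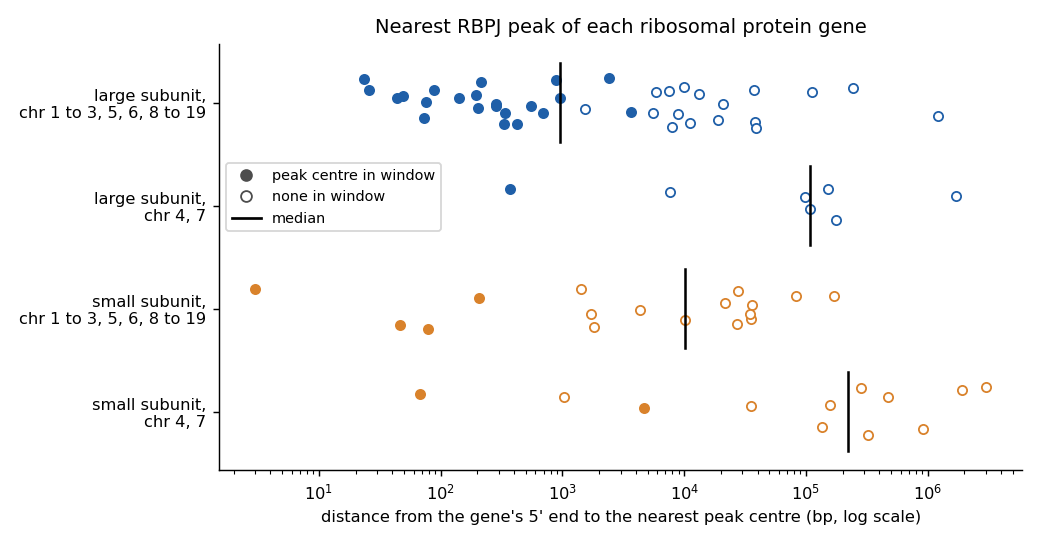
Distance from the annotated 5′ end of each of the 75 ribosomal protein genes to the nearest RBPJ peak centre (bp, log scale), by subunit and by chromosome. Filled points have a peak centre in the window, open points do not, and the black line is the median of each row. The points of chromosomes 4 and 7 reach distances of over 1700 kb.

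The median width of the peaks at the members was 620 bp (quartiles 402 and 1137, range 188 to 2340), against 829 bp at the other 5858 genes with a peak (quartiles 515 and 1393). Peaks under 500 bp were found at 10 members (34.5%) and at 23.6% of the other genes. At the 43 mitochondrial ribosomal protein genes with a peak, described below, the median width was 596 bp and 39.5% of peaks were under 500 bp. Width is the extent of a merged interval and not a measure of binding strength, which the list does not give. When peaks of at least 500 bp alone were counted, 20 members (26.7%) and 21.7% of the other genes had one.

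**Figure D4:**
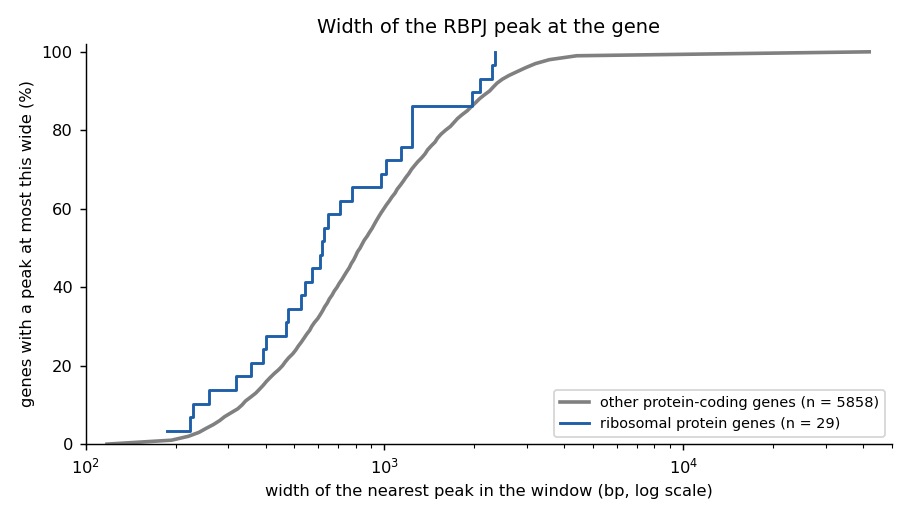
Cumulative share of genes by the width of their nearest peak in the window (bp, log scale) for 29 ribosomal protein genes (blue) and 5858 other protein-coding genes (grey). The blue curve lies to the left of the grey one over most of its length, with medians of 620 and 829 bp.

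The TGGGAA core was looked for, on either strand, within the central 200 bp of the 28 distinct peaks. It was present in 3 (10.7%, 2.27 to 28.2), namely those of Rpl23a (2 copies), Rpl36 (2 copies) and Rpl9 (1 copy), against 798 of 5016 peaks of other genes (15.9%). Over the whole peak the shares were 13 of 28 (46.4%) and 57.6%, in peaks that differed in width as described. Within the central 100 bp they were 10.7% and 8.43%, so that the order of the shares depended on the window. A match is a string of letters and not a site that was seen to be bound.

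Promoter sequence was compared between the members and the other genes in the window of 300 bp shown above. The median GC content was 55.3% in both, while the median ratio of observed to expected CpG was 0.82 in the members and 0.54 in the others. A CpG promoter, defined by at least 55% GC and a ratio of at least 0.6, was found in 35 members (46.7%) and in 37.7% of the other genes. A TOP-like start (a C followed by at least 4 pyrimidines, beginning within 10 bp of the annotated 5′ end) was found in 35 members (46.7%) and in 32.2% of the others.

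The comparison of members with other genes changed direction when the other genes were limited to those with a CpG promoter. Of these, 50.6% had a peak (49.5 to 51.8), which is above the 38.7% of all members and above the 42.9% (15 of 35, 26.3 to 60.6) of members with a CpG promoter, although the last interval takes in 50.6%. Of the members without a CpG promoter, 14 of 40 had a peak (35.0%, 20.6 to 51.7), against 14.7% of such other genes (14.1 to 15.3). The share thus differed less between the promoter classes in the members (42.9% and 35.0%, with overlapping intervals) than in the other genes. The small subunit, with the lower share of peaks, had more CpG promoters (18 of 29, 62.1%) than the large subunit (17 of 46, 37.0%).

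Of the motifs searched on both strands, the ETS-type string CCGGAAG stood in 21 member promoters (28.0%) and in 11.0% of the others, and the YY1-type string AAGATGGC in 5 (6.67%) and 2.92%. The core TGGGAA was found in 20 member promoters (26.7%) and in 25.2% of the others, the GC box GGGCGG in 32 (42.7%) and 43.7%, and TATAAA in 7 (9.33%) and 12.7%. None of these strings contains another. In the members, a peak was present at 6 of 21 promoters with CCGGAAG (28.6%, 11.3 to 52.2) and at 23 of 54 without it (42.6%, 29.2 to 56.8), with overlapping intervals. In the other genes the order was the opposite, with a peak at 47.6% of promoters with the string and at 25.9% of those without. For TGGGAA the shares were 6 of 20 (30.0%) with and 23 of 55 (41.8%) without the core, with overlapping intervals, and in the other genes they were 27.4% and 28.5%. Of members with a TOP-like start 14 of 35 had a peak (40.0%), and of those without it 15 of 40 (37.5%), against 27.8% and 28.5% in the other genes.

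Many members have close neighbours, to which a peak may belong as well. A divergent protein-coding neighbour with its 5′ end within 1 kb was found for 8 members (10.7%) and 6.96% of the other genes, and 5 of the 8 had a peak (62.5%, 24.5 to 91.5; 52.8% of such other genes), namely Rpl35a (neighbour Iqcg), Rpl7a (Med22), Rpl9 (Lias), Rps24 (Polr3a) and Rps28 (Ndufa7). Rpl4 (Zwilch), Rps2 (Rnf151) and Rps27 (Rab13) had none in the window. Of the 67 members without such a neighbour, 24 had a peak (35.8%), against 26.4% of such other genes. In 5 members, among them Rpl7, Rpl7a, Rpl15 and Rpl36, the centre of the nearest peak was closer to the 5′ end of another gene, which leaves 24 members (32.0%) with a peak nearest to themselves, against 24.0% of the other genes. Small nucleolar RNAs, which guide the modification of rRNA, are encoded within 26 members, of which 11 had a peak (42.3%), against 18 of the other 49 (36.7%).

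The symbol rule left out several ribosomal protein genes. Of 6 on chromosomes 1 to 19, Fau (centre 44.5 bp from the start), Rack1 (991 bp) and Rps3a1 (6.5 bp) had a peak, while Rpsa and Rpl36al were among those without. Rpl10, Rpl36a, Rpl39 and Rps4x lie on chromosome X and were not counted. The paralogues Rpl3l, Rpl10l, Rpl39l and Rps27l, which the rule took in, had no peak, so that without them the share was 29 of 71 (40.8%). The paralogues Rpl22l1 (213.5 bp) and Rpl7l1 (107.5 bp), outside the rule, had one.

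Other genes of protein synthesis carried peaks at higher shares than the cytosolic ribosomal proteins. In the mitochondrial ribosome, which is encoded separately in the nucleus, 43 of 78 genes had a peak (55.1%, 43.4 to 66.4), for example Mrpl14, Mrpl15, Mrpl18 and Mrpl19 and not Mrpl1, Mrpl10, Mrpl11 and Mrpl12. There the subunits had like shares, with 27 of 49 large subunit genes (55.1%, 40.2 to 69.3) and 16 of 29 small subunit genes (55.2%, 35.7 to 73.6). Of other genes with TOP mRNAs, which include the elongation factors, 11 of 15 had a peak (73.3%, 44.9 to 92.2), among them Eef1b2, Eef1d, Eef1g and Eef2, while Eef1a1, Eif3f, Nap1l1 and Pabpc4 had none. Initiation factors had 22 of 35 (62.9%, 44.9 to 78.5), with Eif1, Eif1ad, Eif2b2 and Eif2b4 among those with a peak and Eif1b, Eif2b1, Eif2b3 and Eif3c among those without. Ribosome biogenesis factors had 16 of 35 (45.7%, 28.8 to 63.4), among them Bop1, Eif6, Gtpbp4 and Ncl, while Bysl, Fbl, Gar1 and Ltv1 had none. All these intervals overlap that of the members, and some genes stand in more than 1 list.

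**Figure D5:**
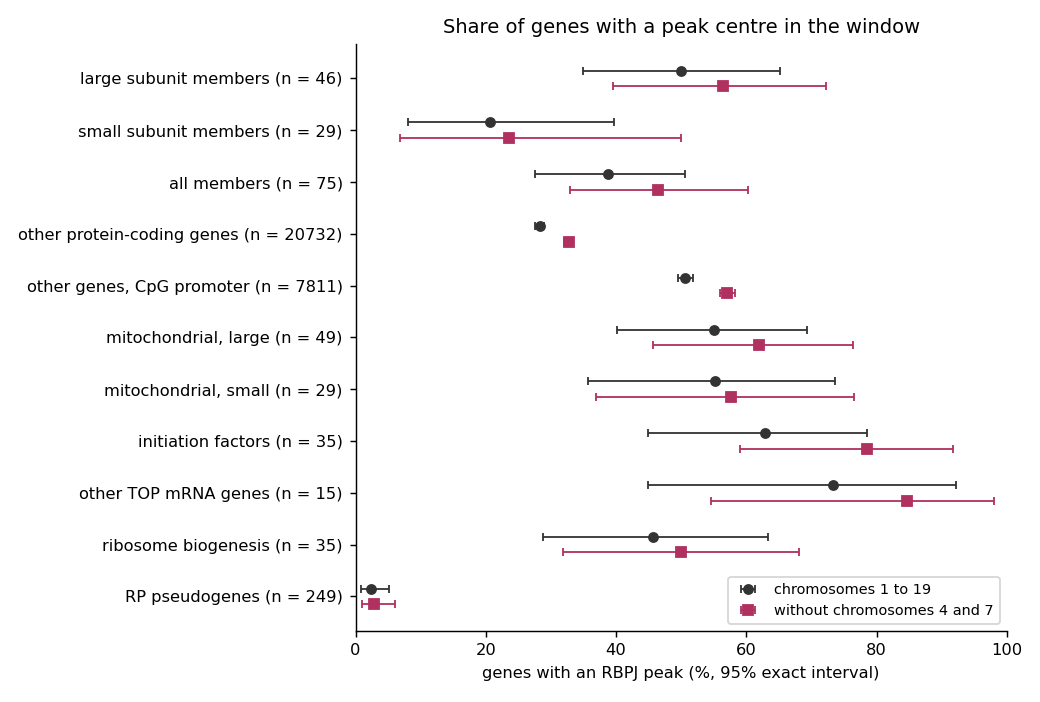
Share of genes with an RBPJ peak centre in the window (%, with the 95% exact interval) for the cytosolic ribosomal proteins and other lists, on all of chromosomes 1 to 19 (black circles) and without chromosomes 4 and 7 (red squares). The small subunit (20.7%) lies below the large subunit (50.0%), while both mitochondrial subunits lie near 55%, and pseudogenes lie at 2.41%.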

How the data were processed

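RBPJ ChIP-seq was performed in untreated RD1 cells with 2 replicates. Per the submitters' notes, FastQC, Bowtie, Picard, SAMtools and deepTools were used with the build GRCm38. Per the study's methods, the authors removed duplicates and those reads that matched at more than 3 places (1 place was reported for the rest), called peaks with MACS2 and PeakRanger, merged nearby peaks, kept regions called repeatedly over both callers and replicates, and filtered out blacklisted intervals. The RBPJ data used here were 1 consensus list of peak positions in bp (first base counted as 1), with no score, count or summit. From this list the depth is unknown and binding strength cannot be compared. Ribosomal protein genes have many processed pseudogenes (median 2.00 named copies for members with a peak and 1.00 for those without), so that reads from shared exons may match at several places; the effect was not tested.

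TSSs were the 5′ ends of genes in GENCODE M21 (GRCm38.p6); 0 peaks ran past a chromosome end. In the RefSeq promoter table, 55 members were found, with a median of 30.0 bp between the RefSeq and GENCODE starts and 41 within 100 bp. Scripts ran under Python 3.11.15 with pandas 2.3.3, numpy 2.4.6, matplotlib 3.10.9 and scipy 1.17.1, and were tested on simulated data. Intervals are 95% exact (Clopper-Pearson). No test was made, because there is 1 list. The members and lists were chosen with earlier results of these data known. Named genes were, by rule, each member once, with full values for the 8 closest and 5 widest peaks, peaks with a central TGGGAA, several peaks, or another gene nearer, and up to 4 genes with and 4 without a peak, in alphabetical order, of the other lists. The rule for sequences took promoters with TGGGAA first; after values were seen, those with a copy outside their peak were replaced by the promoters with the 4 narrowest peaks. Some members, and a sequence, are not reported here. The 5 members just outside the window were also singled out in that way. The settings varied were the window, the start, overlap, chromosomes, peak width, membership, comparison genes and the motif window. H3K4me1, H3K4me3, H3 and input samples were not analysed here.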

Additional observations from a re-analysis of the deposited data

How the results depend on the processing

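The count of 29 members with a peak ranged from 20 (peaks of at least 500 bp) to 34 (window to 2 kb downstream) over 16 alternatives, within 1.5 times of the main count in each. The members' share exceeded that of the other genes by 10.4 percentage points, and by 5.0 to 15.4 points in 15 of the alternatives. For all 75 members, 40 of them without a CpG promoter, against other genes with a CpG promoter alone the difference was -12.0 points. Within promoter classes the shares were 42.9% against 50.6% with a CpG promoter and 35.0% against 14.7% without. With a CpG promoter and without chromosomes 4 and 7 they were 52.2% against 57.0%. The extension to 2 kb downstream, the count of genes nearest to the peak (24), the count of 5′ ends inside a peak (24) and the omission of genes in gaps of over 5 Mb (29 of 74) were chosen after seeing the data. TGGGAA in member peaks moved from 10.7% to 46.4% when the whole peak was searched, which is a longer stretch. Median width (614 to 626 bp) and distance (204 to 214 bp) stayed within the spread over members. Without replicate 1 or without replicate 2 the count was 29 to 29, because both files hold the same list, so that this says nothing about replicate error. No paired analysis was possible because the 2 replicates hold 1 list and the result comes from no test. The depth is unknown, and a site under the calling threshold cannot be told from an unbound one. A different choice of gene start moved the small subunit from 6 to 9 genes and a longer window to 10. With peaks of at least 500 bp alone it fell to 3 of 29 (10.3%), against 17 of 46 in the large subunit (37.0%).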

Other observations

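Processed copies of ribosomal protein genes were also examined. Of 249 named ribosomal protein pseudogenes on chromosomes 1 to 19, 6 had a peak centre in the window (2.41%, 0.889 to 5.17), and of 8944 other pseudogenes of the same types 214 did (2.39%, 2.09 to 2.73). They were Rpl19-ps1, Rpl30-ps6, Rpl31-ps7, Rpl32-ps, Rpl35a-ps3 and Rps13-ps5. At Rpl19-ps1 on chromosome 1 a peak of 1864 bp was centred 11.5 bp from the annotated 5′ end, while the nearest protein-coding 5′ end, that of Slc16a14, was 76991.5 bp away. The peak at Rpl32-ps was centred 4643.5 bp from the pseudogene and 103.5 bp from the start of Nmd3, a factor for the export of the large subunit. Rpl19 itself had its nearest peak 37.6 kb from its start.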
